A study of Mus musculus with 14 samples.

Results

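The 10 genes described here are the fibroblast growth factor (FGF) genes of the mouse limb bud: the 6 ligands Fgf4, Fgf8, Fgf9, Fgf10, Fgf17 and Fgf18, and the 4 receptors Fgfr1, Fgfr2, Fgfr3 and Fgfr4. They were taken by exact gene symbol from the 23284 symbols of the count files. Of these 10 genes, 8 passed the filter on low counts and were tested among 12393 genes, while Fgf17 and Fgfr4 lay below it.

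RNA was sequenced from the paired forelimb buds of single mouse embryos (labelled strain NMRI), so that 1 embryo made 1 replicate. Embryos of 30 somites (E10.0) and of 35 somites (E10.5) were compared between 2 genotypes. Wild-type embryos, 3 at each stage, were Smad4+/+ PrxCreT/+, and mutant embryos, 4 at each stage, were Smad4Δ/Δc PrxCreT/+, with a null allele and a conditionally deleted allele of Smad4, the shared partner of the receptor-activated SMAD proteins of the BMP and TGFβ pathways. All 14 embryos therefore carried the Cre transgene. Prrx1-driven Cre acts in the limb bud mesenchyme, so the ectoderm and its apical ridge kept an unrecombined conditional allele.

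FGFs are secreted ligands that bind receptor tyrosine kinases together with heparan sulfate. In the limb bud, the apical ectodermal ridge secretes FGF8, FGF4, FGF9 and FGF17, which act on FGFR1 and FGFR2 in the underlying mesenchyme to keep it alive and growing. The mesenchyme in turn secretes FGF10, which signals back to the ectoderm through the epithelial splice form of FGFR2, and mesenchymal GREM1, a BMP antagonist, links this exchange to SHH signalling.

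Reads on genes ranged from 34066930 to 61691258 per library, and levels are given as CPM, the reads of a gene relative to the TMM-scaled size of its library. The deleted gene was low in every mutant library: Smad4 read 169, 152 and 161 CPM in wild-type and 38.4, 46, 37.7 and 36.9 CPM in mutant forelimb buds at E10.0, and 167, 163 and 167 against 40.7, 38.8, 32.9 and 35.6 CPM at E10.5. The mutant libraries of replicates 4 and 5 stood apart at both stages, since the ribosomal RNA precursor Rn45s took 1.72 to 8.05% of their reads and 0.151 to 0.478% in the other 10 libraries. No wild-type library shares this feature, and the other 4 mutant libraries do not have it. Where a call of a member, or a genotype call of another named gene, was lost or gained without mutant replicates 4 and 5, that value is given too. Limb mesenchyme markers (Prrx1, Prrx2, Tbx5, Twist1, Msx1, Lhx2 and Lhx9) summed to 1070 CPM or more in every library, and ridge markers to 89.8 CPM or more, so the defining markers of a limb bud were present. In whole buds, fewer cells that express a gene and less RNA per cell cannot be told apart.

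The members differed widely in level. Divided by the length of the longest protein-coding transcript, Fgfr1 was the highest in wild-type forelimb buds at E10.0, with 51.8 CPM per kilobase, followed by Fgfr2 with 24.4, Fgf8 with 14.7 and Fgf10 with 14.1. Fgfr3 followed with 1.80 CPM per kilobase, and the other 5 members lay between 0.15 for Fgfr4 and 0.759 for Fgf18. The ranges of Fgf8 and Fgf10 overlapped in all 4 groups, so their order was not resolved, and the same held in wild-type buds at E10.0 for the neighbours Fgf17 and Fgf4 and for Fgf4 and Fgf9. The order of the first 2 receptors held in every group. The place of Fgf18 differed between groups. It was below Fgfr3 in both E10.0 groups and in wild-type buds at E10.5 (1.25 against 2.02 CPM per kilobase) but above it in mutant buds at E10.5 (2.61 against 1.40), with no overlap of the ranges in either case. With all exons of a gene taken as its length, Fgfr2 came behind Fgf8 and Fgf10 in the mutants by a small margin.

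**Figure D1:**
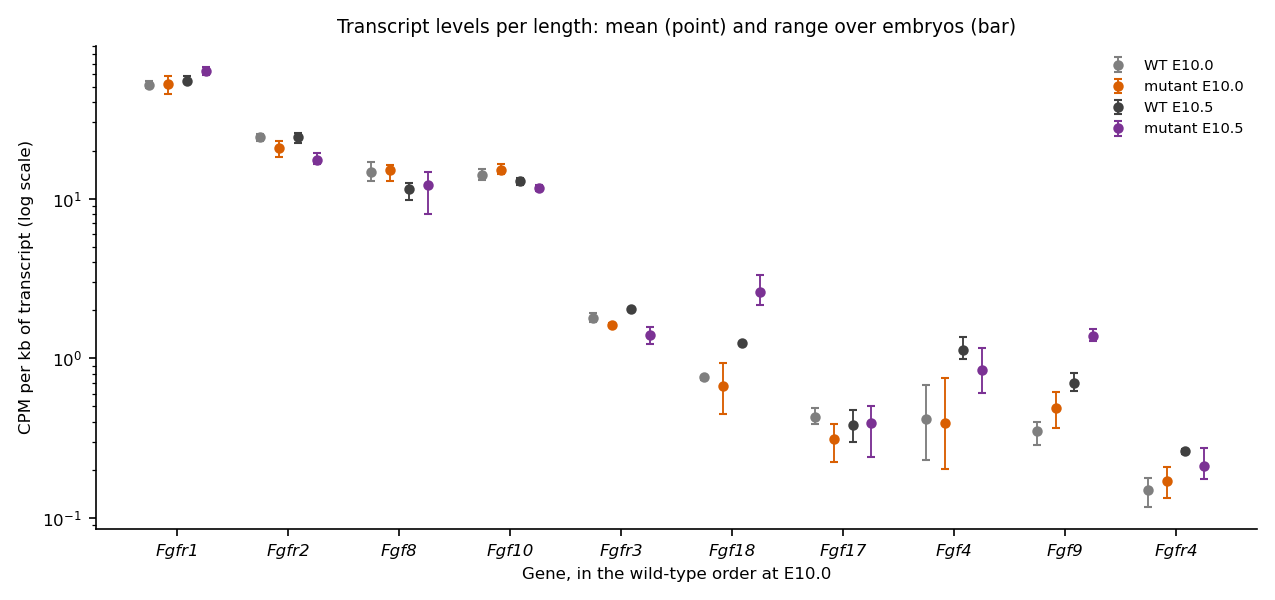
Level of each gene per transcript length (CPM per kilobase, log axis) in the 4 groups; points are means and lines run from the lowest to the highest embryo, with genes ordered by their wild-type level at E10.0. Fgfr1, at 51.8 to 62.6 CPM per kilobase, was the highest in every group, and Fgf18 lay above Fgfr3 in mutant buds at E10.5.

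At E10.0, none of the 8 tested FGF genes differed between the genotypes in edgeR's exact test (FDR at most 0.1 and a change of at least 1.2-fold), while 6.61% of all genes passed (3.33% higher and 3.28% lower in mutants). Over all genes, 50.4% of these calls were higher in mutants, against 62.4% with Rn45s removed before scaling and 37.9% without mutant replicates 4 and 5. At an unadjusted p under 0.05, 2 of the 8 differed, Fgf9 and Fgfr2, and neither DESeq2 nor edgeR's quasi-likelihood test called any member. The median log2 fold change was -0.03 over the 8 members and -0.02 over all genes.

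At E10.5, 4 of the 8 passed the same test: the ligands Fgf9 and Fgf18 were higher in mutants, and the receptors Fgfr2 and Fgfr3 were lower. Among all genes 3.73% passed, 2.19% higher and 1.54% lower. The median log2 fold change was -0.03 over the 8 members and -0.01 over all genes, with increases and decreases balanced among the members. No member passed edgeR's quasi-likelihood test of the interaction between stage and genotype, in which 0.186% of all genes passed. Therefore none of these genes was shown to change differently between genotypes over time. At an unadjusted p under 0.05, 4 of the 8 showed an interaction (Fgf10, Fgf18, Fgfr2 and Fgfr3), and DESeq2 called 1, Fgf18.

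**Figure D2:**
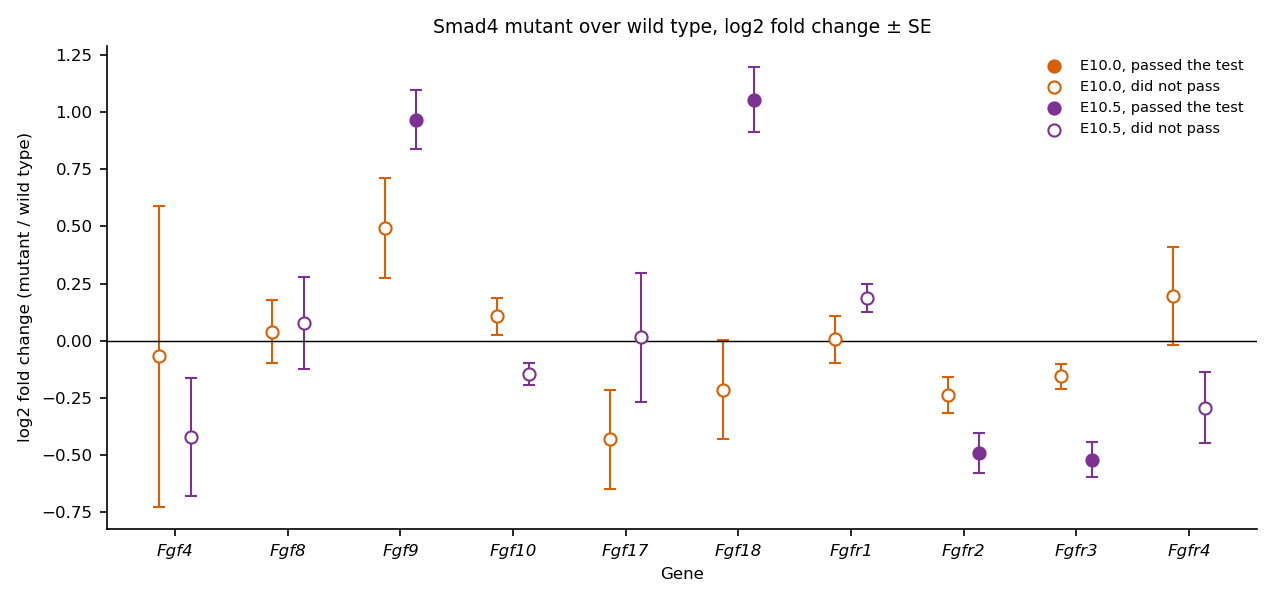
Log2 fold change of mutant over wild-type forelimb buds ± SE for each gene at E10.0 and E10.5; filled points passed edgeR's exact test. Filled points appear at E10.5 for Fgf9 (0.97), Fgf18 (1.05), Fgfr2 (-0.49) and Fgfr3 (-0.52), and at no gene at E10.0.

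The sequences just upstream of these 4 genes are shown because they are the members that changed with genotype. RefSeq windows of 250 bases before the transcription start (build GRCm38.p6) were found for 7 of the 10 members, not for Fgf8, Fgf17 and Fgfr1, and are written 5′ to 3′ on the gene's own strand. The letters CAGAC or their reverse complement GTCTG, the core of the DNA motif bound by SMAD proteins, are in capitals. The window of Fgf9 (chr14:58072436-58072685, plus strand) holds GTCTG at bases 129 to 125 before the start. That of Fgf18 (chr11:33147401-33147650, minus strand) holds CAGAC at 190 to 186 and GTCTG at 15 to 11. Neither string occurs in the windows of Fgfr2 (chr7:130266809-130267058, minus strand) and Fgfr3 (chr5:33721474-33721723, plus strand, the first of 2 windows).
Fgf9: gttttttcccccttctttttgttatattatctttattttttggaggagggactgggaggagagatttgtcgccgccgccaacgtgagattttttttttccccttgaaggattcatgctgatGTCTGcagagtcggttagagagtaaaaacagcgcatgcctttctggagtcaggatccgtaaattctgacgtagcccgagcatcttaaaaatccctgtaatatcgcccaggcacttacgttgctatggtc
Fgf18: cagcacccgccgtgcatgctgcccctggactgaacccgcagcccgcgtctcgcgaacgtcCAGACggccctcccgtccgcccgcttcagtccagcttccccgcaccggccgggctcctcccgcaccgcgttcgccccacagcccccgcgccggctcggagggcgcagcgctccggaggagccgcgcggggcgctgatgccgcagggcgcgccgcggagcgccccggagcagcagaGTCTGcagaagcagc
Fgfr2: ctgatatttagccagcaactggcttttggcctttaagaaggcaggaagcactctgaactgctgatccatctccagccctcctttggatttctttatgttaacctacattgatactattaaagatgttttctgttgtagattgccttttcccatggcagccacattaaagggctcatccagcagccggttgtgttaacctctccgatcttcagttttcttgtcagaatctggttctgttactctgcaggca
Fgfr3: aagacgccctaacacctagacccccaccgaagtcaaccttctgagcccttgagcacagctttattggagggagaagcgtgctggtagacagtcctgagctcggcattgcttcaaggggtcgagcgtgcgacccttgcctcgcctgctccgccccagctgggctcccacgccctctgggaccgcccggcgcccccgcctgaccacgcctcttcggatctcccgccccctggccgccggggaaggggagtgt
CAGAC in either orientation is common, in 42.2% of 32851 such windows, so its presence upstream of Fgf9 and Fgf18 describes letters and shows no binding. The palindrome GTCTAGAC, present in 0.167% of windows, was in none of the members' windows, and GGCGCC, another SMAD-bound string present in 9.59%, was upstream of Fgfr3 and Fgf4. The windows differ in composition, with 44.8% G and C for Fgf9, 77.2% for Fgf18 and 44% for Fgfr2.

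Fgf9 encodes a ligand of the ridge and is located on chromosome 14 (mm9 chr14:58689384-58731174). At E10.5 its level was 2.16, 2.0 and 2.6 CPM in the 3 wild-type embryos and 4.89, 4.39, 4.13 and 4.17 CPM in the 4 mutants, from 42 to 275 reads per library over the whole series. The lowest mutant was therefore well above the highest wild-type embryo. Fgf9 was 1.95-fold higher in mutants (log2 fold change 0.97 ± 0.13 SE, FDR 0.000149, edgeR exact test), and it passed in 16 of 16 alternative settings. At E10.0 wild-type embryos read 1.17, 1.29 and 0.925 CPM and mutants 1.97, 1.78, 1.17 and 1.35 CPM. Here the groups overlapped and the difference of 0.49 ± 0.22 (log2) did not pass (FDR 0.210, edgeR exact test). Without mutant replicates 4 and 5, which held the 2 lowest mutant values, it reached 0.75 with an FDR of 0.0233, and without mutant replicate 4 alone it reached 0.60 and passed. The FDR ranged from 0.0233 to 0.675 over all alternatives. The Fgf9 level also rose with stage, from 1.13 ± 0.185 CPM (SD, n = 3) to 2.26 ± 0.311 CPM (SD, n = 3) in wild-type embryos, and from 1.57 ± 0.368 CPM (SD, n = 4) to 4.4 ± 0.349 CPM (SD, n = 4) in mutants. Both rises passed edgeR's exact test, with changes of 1.99-fold (FDR 0.000619) and 2.76-fold (FDR 2.8e-13).

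Fgf18 encodes a ligand best known for its part in cartilage and bone growth, in part through FGFR3 (mm9 chr11:33017430-33047400). At E10.5 its level was 1.37, 1.34 and 1.36 CPM in wild-type embryos and 2.35, 2.52, 3.59 and 2.87 CPM in mutants, again with no overlap. The change was 2.08-fold (log2 1.05 ± 0.14 SE, FDR 0.000417, edgeR exact test) and passed in 16 of 16 alternatives. The highest mutant values came from replicates 4 and 5, and without them the change was 0.85 (log2, FDR 0.0175). At E10.0 the wild-type embryos read 0.841, 0.838 and 0.792 CPM and the mutants 0.667, 0.485, 0.737 and 1.01 CPM, with overlapping groups and a log2 difference of -0.21 ± 0.22 (FDR 0.780, edgeR exact test). From E10.0 to E10.5, Fgf18 rose 3.94-fold in mutants (log2 1.98 ± 0.26, FDR 4.0e-16) and 1.64-fold in wild-type buds (log2 0.71 ± 0.03, FDR 0.0802, edgeR exact test). The wild-type SE holds only the spread between embryos. With 36 to 46 reads per library at E10.0 and 57 to 68 at E10.5, it understates the uncertainty. The wild-type rise was close to the threshold and failed it when any of the 6 wild-type embryos was left out, at log2 fold changes of 0.69 to 0.73, although the embryos of the 2 stages did not overlap. The interaction of stage and genotype was 1.26 on the log2 scale, with an unadjusted p of 0.00107 and an FDR of 0.260 in edgeR's quasi-likelihood test. It passed in DESeq2 (FDR 0.0594) and without mutant E10.0 replicate 5 (1.46, edgeR quasi-likelihood test), and its FDR ranged from 0.0594 to 0.584 over all alternatives.

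The other ligands of the ridge did not pass the test between genotypes. Fgf8, its principal ligand (mm9 chr19:45811288-45817405), read 15.2, 19.8 and 16.6 CPM in wild-type and 18, 18.9, 18.8 and 15.1 CPM in mutant forelimb buds at E10.0. At E10.5 it read 14.7, 13.9 and 11.5 and 9.37, 14.3, 15.8 and 17 CPM, and the groups overlapped at both stages. The log2 differences were 0.04 ± 0.14 at the earlier and 0.08 ± 0.20 at the later stage (FDR 0.939 and 0.967, edgeR exact test). The log2 difference of E10.5 over E10.0 was -0.36 ± 0.16 in wild-type and -0.33 ± 0.19 in mutant buds, and neither passed (FDR 0.214 and 0.135, edgeR exact test). In mutants it passed without replicates 4 and 5 (-0.63, FDR 0.00997), without E10.0 replicate 5 (-0.39) and without E10.5 replicate 5 (-0.43).

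Fgf4, the ridge ligand that depends on the GREM1 and SHH loop (mm9 chr7:152047291-152051148), read 2.05, 0.695 and 1.06 CPM in wild-type and 2.27, 1.26, 0.628 and 0.615 CPM in mutant buds at E10.0. At E10.5 the values were 4.11, 3.0 and 3.2 and 2.83, 3.49, 1.84 and 2.05 CPM. Genotypes overlapped at both stages, with log2 differences of -0.07 ± 0.66 and -0.42 ± 0.26 (FDR 0.951 and 0.850, edgeR exact test). The mutant embryos alone spanned 0.615 to 2.27 CPM at E10.0, and Fgf4 had 23 to 179 reads per library, so the estimate at E10.0 had little precision. With stage, Fgf4 rose 2.70-fold in wild-type (FDR 0.0139) and 2.11-fold in mutant buds (FDR 0.0189, edgeR exact test). The wild-type call was lost without E10.0 replicate 2 (1.14, log2) or replicate 3 (1.32), and the mutant call without replicates 4 and 5 (0.84, FDR 0.137).

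Fgf17 (mm9 chr14:71036012-71042075) had the lowest mean CPM of the ridge ligands in every group. Per length, its order among Fgf4 and Fgf9 was not resolved in wild-type buds at E10.0. It gave 18 to 41 reads per library and is described from a fit with no filter on low counts. In that fit, 4.28% of 18612 genes passed at E10.0, 2.72% at E10.5, 6.81% between stages in wild-type and 14.1% in mutant buds. The Fgf17 level was 0.658, 0.818 and 0.682 CPM in wild-type and 0.376, 0.641, 0.656 and 0.443 CPM in mutant buds at E10.0, so every mutant lay below every wild-type embryo by a narrow margin. The log2 difference of -0.43 ± 0.22 did not pass (FDR 0.605, edgeR exact test). At E10.5 the groups overlapped, at 0.648 ± 0.151 CPM (SD, n = 3) and 0.668 ± 0.190 CPM (SD, n = 4).

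The ridge ligands were also set against the Fgf8 reads of the same library. These are reads of whole buds, and the cells they came from were not resolved. On this scale, Fgf9 amounted to 6.60 ± 1.08% (SD, n = 3) in wild-type and 8.90 ± 1.95% (n = 4) in mutant buds at E10.0. At E10.5 these shares were 17.3 ± 4.71% (range 14.4 to 22.7%) and 33.3 ± 12.8% (24.5 to 52.2%). All are ratios of reads, not divided by transcript length, which is 3210 bases for Fgf9 and 1168 for Fgf8. The E10.5 groups did not overlap, and the log2 difference was 0.91 (two-sided exact permutation p = 0.0571, or 0.171 adjusted over 6 tests). With 3 against 4 embryos 0.0571 is the smallest p possible, so the test cannot reach 0.05. Fgf17 showed the same separation in the other direction at E10.0, at 4.19 ± 0.130% against 2.98 ± 0.639% (exact permutation p = 0.0571, adjusted 0.171). Fgf4 amounted to 7.79 ± 5.15% at E10.0 and 25.8 ± 3.70% at E10.5 in wild-type buds and to 6.69 ± 4.23% and 19.6 ± 9.22% in mutants, with genotype differences of -0.20 and -0.52 (log2, exact permutation p = 0.8 and 0.4). Markers of the ridge gave no called gene at either stage: 0 of 7 passed the exact test, DESeq2 or the quasi-likelihood test, and 0 had an unadjusted p under 0.05. The smallest p belonged to Dlx2 at E10.0 (-0.17, FDR 0.705) and Rspo2 at E10.5 (-0.25, FDR 0.558, edgeR exact test). Their summed level was 117 to 122 CPM in wild-type and 89.8 to 123 CPM in mutant buds at E10.5. Whether the amount of ridge has a part in the Fgf9 difference at E10.5 was not tested.

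Fgf10, the mesenchymal ligand that establishes and maintains the ridge (mm9 chr13:119458598-119580922), was the most abundant FGF ligand by reads. It read 53.8, 62.6 and 57 CPM in wild-type and 67.8, 61.4, 58.4 and 61.3 CPM in mutant buds at E10.0, and 50.4, 55.3 and 53.2 against 50.1, 48.8, 46.7 and 45.9 CPM at E10.5. The groups overlapped at E10.0. At E10.5 all 4 mutants lay just below the 3 wild-type embryos, by -0.15 ± 0.05 on the log2 scale, which did not pass (FDR 0.632, edgeR exact test), and 13% of all genes had groups that did not overlap at this stage. From E10.0 to E10.5, Fgf10 fell in mutants to 0.769 of its level (log2 -0.38 ± 0.05, FDR 7.9e-05, edgeR exact test, passed in 17 of 17 alternatives), while the wild-type difference of -0.13 ± 0.08 did not pass (FDR 0.454). The interaction had an unadjusted p of 0.0226 and an FDR of 0.780 (edgeR quasi-likelihood test), so the 2 genotypes were not shown to differ in this fall. Exons of Fgf10 overlap Gm16263, and counting ignored strand, so reads of that gene cannot be separated from it there.

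**Figure D3:**
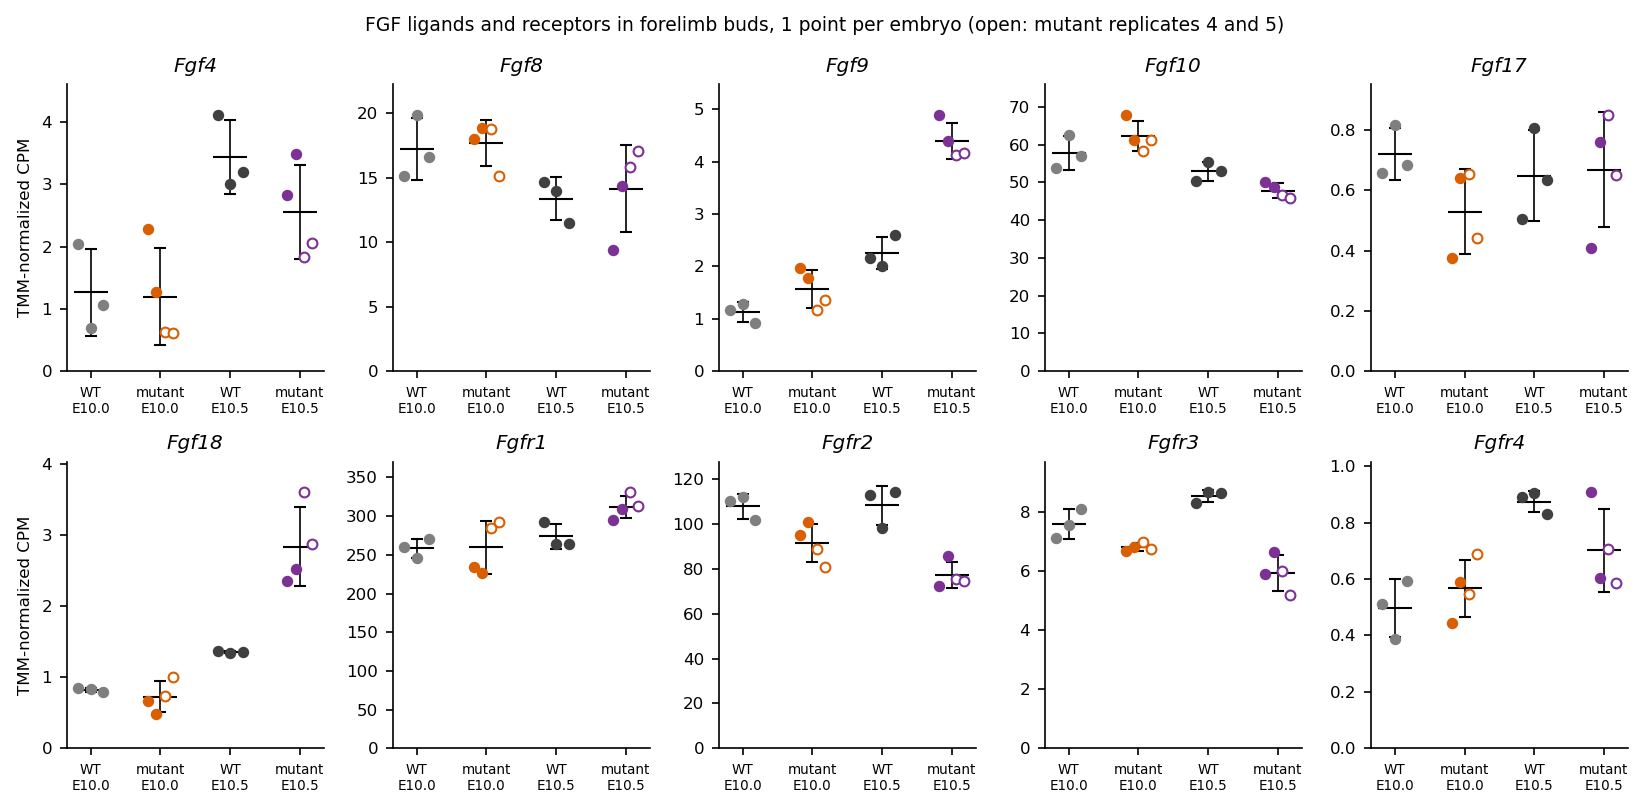
TMM-normalized CPM of each of the 10 genes in every embryo, by genotype and stage; bars give mean ± SD, and open points mark mutant replicates 4 and 5. At E10.5, mutants lay above wild-type embryos for Fgf9 and Fgf18 and below them for Fgfr2 and Fgfr3, with no overlap.

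Fgfr2, the receptor with an epithelial splice form for FGF10 and a mesenchymal form for ridge ligands (mm9 chr7:137306026-137410322), was lower in mutants at E10.5. It read 113, 98.4 and 114 CPM in wild-type and 72.6, 85.7, 75.7 and 74.6 CPM in mutant buds. No mutant reached the lowest wild-type value, and the level in mutants was 0.712 of wild type (log2 -0.49 ± 0.09 SE, FDR 2.4e-05, edgeR exact test), with a call in 16 of 16 alternatives. At E10.0 the values were 110.4, 112 and 102 and 95.3, 101, 88.9 and 81 CPM. The groups did not overlap there either, as for 17.8% of all genes, but the log2 difference of -0.24 ± 0.08 missed the threshold (FDR 0.128, edgeR exact test). It passed without mutant replicate 3, whose value was the highest of the 4 (-0.29). The stage difference in wild-type buds was 0.01 ± 0.08 (FDR 0.988, edgeR exact test). In mutants the difference of -0.25 ± 0.09 had an FDR of 0.0296 but amounted to 0.843 of the E10.0 level, short of a 1.2-fold change. It passed without replicates 4 and 5 (-0.30), without E10.0 replicate 5 (-0.30) and without E10.5 replicate 2 (-0.30). The counts pool both splice forms, and neither was measured on its own.

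Fgfr3, known as a restraint on cartilage growth (mm9 chr5:34064373-34079716), was the other receptor that was lower at E10.5, at 8.29, 8.66 and 8.64 CPM in wild-type and 5.89, 6.65, 6.0 and 5.18 CPM in mutant buds. The groups were apart, and the mutant level was 0.698 of wild type (log2 -0.52 ± 0.08, FDR 0.00233, edgeR exact test). The call held in 15 of 16 alternatives and was lost with a replicate block (-0.44, FDR 0.128). Between genotypes, the block draws only on replicate numbers present in both (1 and 3 at E10.0, 1 and 2 at E10.5), so it is a weak check. At E10.0 it read 7.11, 7.57 and 8.1 and 6.67, 6.82, 6.99 and 6.76 CPM, apart by a smaller step of -0.16 ± 0.06 (FDR 0.558, edgeR exact test). Between stages, the log2 difference was 0.17 ± 0.06 in wild-type and -0.19 ± 0.07 in mutant buds, and neither passed (FDR 0.487 and 0.268, edgeR exact test). The interaction gave an unadjusted p of 0.0150 and an FDR of 0.714 (edgeR quasi-likelihood test).

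Fgfr1, the main receptor of the limb mesenchyme (mm9 chr8:26624126-26686186), read 259.5, 245 and 270.4 CPM in wild-type and 235, 226, 285 and 293 CPM in mutant buds at E10.0. Among these mutants, replicates 4 and 5 were above all wild-type embryos and the other 2 below them, so the log2 difference of 0.01 ± 0.10 (FDR 0.985, edgeR exact test) became -0.15 without replicates 4 and 5. At E10.5 it read 293, 264 and 264 and 295, 309, 331 and 313 CPM. Mutants were narrowly higher without overlap, by 0.19 ± 0.06 (FDR 0.503, edgeR exact test). The mutant rise with stage was 1.2-fold (log2 0.27 ± 0.10, FDR 0.0223, edgeR exact test) and sat at the fold threshold. It was lost in 7 of 17 alternatives, among them the fit with a replicate block (0.21) and the fits without E10.0 replicate 1 (0.22) or 3 (0.20) or E10.5 replicate 4 (0.24), and was 0.40 without replicates 4 and 5. Exons of Fgfr1 overlap Gm16159, whose reads cannot be separated there.

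Fgfr4, a receptor of muscle precursors (mm9 chr13:55254001-55270120), was the weakest member per length, with 18 to 51 reads per library. In the fit with no filter, its log2 genotype difference was 0.20 ± 0.22 at E10.0 (FDR 0.888) and -0.29 ± 0.16 at E10.5 (FDR 0.917, edgeR exact test). In wild-type buds it rose from 0.498 ± 0.104 CPM (SD, n = 3) to 0.875 ± 0.0380 CPM (SD, n = 3), a call (1.77-fold, FDR 0.0760, edgeR exact test) that held in 1 of 7 alternatives. In mutants the log2 difference of 0.33 ± 0.20 did not pass (FDR 0.534).

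As shares of the family per length, Fgfr1 made up 66.3% of the receptor level in wild-type buds at the earlier and 67.2% at the later stage, and 69.6 and 76.7% in mutants. Fgfr2 made up 31.2 and 30.0% in wild-type and 28 and 21.4% in mutant buds. Among the ligands, Fgf8 and Fgf10 together made up most of the level in every group, from 47.8% Fgf8 and 45.8% Fgf10 in wild-type buds at E10.0 to 41.4 and 40.6% in mutants at E10.5. Fgf18 contributed 2.48% and 8.98%, and Fgf9 1.14% and 4.79%, in the same groups. These shares restate the levels and were not tested.

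From the earlier to the later stage, 3 of the 8 tested members rose in wild-type buds (Fgf4, Fgf9 and Fgf18) and none fell. In mutants 4 rose (Fgf4, Fgf9, Fgf18 and Fgfr1) and 1 fell (Fgf10). Fgf18 met the filter on low counts through its E10.5 levels. At E10.0 it read 0.792 to 0.841 CPM in wild-type and 0.485 to 1.01 CPM in mutant buds. Its place among the tested members is therefore not independent of its rise. Fgf17 and Fgfr4, below the filter, are not in these counts. Among all genes the exact test called 10.1% in wild-type buds (5.39% higher, 4.74% lower) and 19.2% in mutants (10.8% higher, 8.4% lower). The median log2 change of the 8 members was 0.13 in wild-type and 0.04 in mutant buds, against -0.01 over all genes in both. Levels of the ligands Fgf4, Fgf9 and Fgf18 were thus higher at the later stage in both genotypes, whereas Fgf8 and Fgf10 passed in no comparison as higher.

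**Figure D4:**
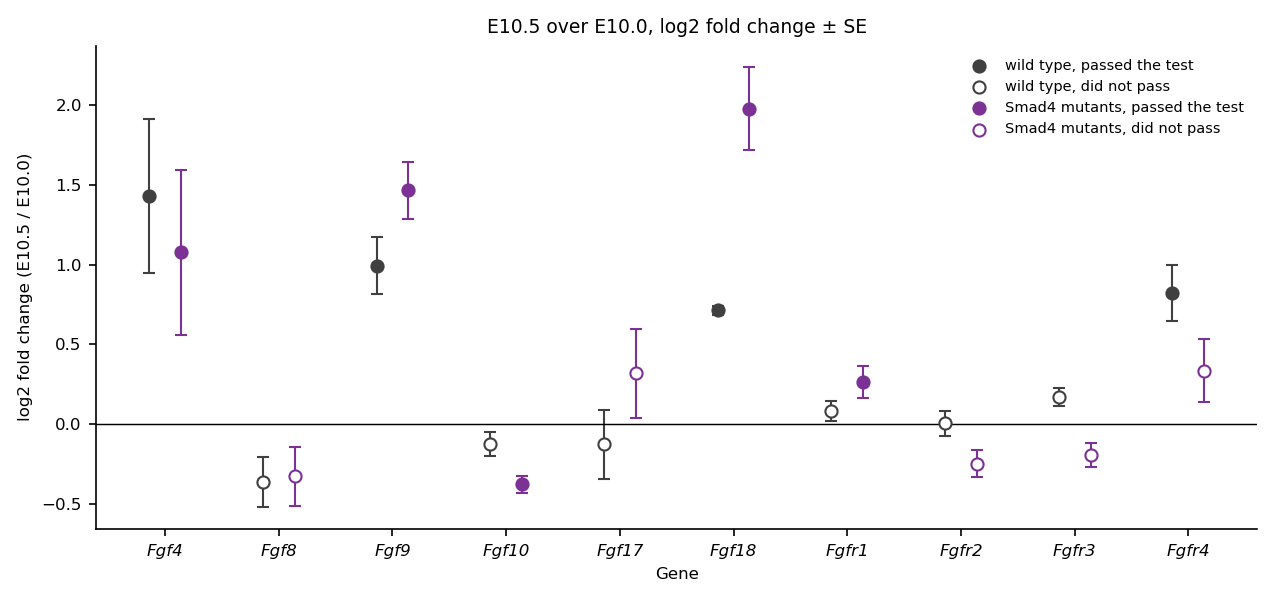
Log2 fold change of E10.5 over E10.0 ± SE for each gene in wild-type and mutant forelimb buds; filled points passed edgeR's exact test. Fgf4, Fgf9 and Fgf18 passed in both genotypes, with the largest value for Fgf18 in mutants (1.98).

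Few genes of the wider pathway passed. Of the 16 other mouse Fgf genes, 2 were tested (Fgf1 and Fgf5). Fgf13, with group means of 6.45 to 9.09 CPM, was left out because it lies on chromosome X. The same holds in the lists below for Gpc3 (group means of 948 to 1051 CPM), Gpc4 and Hs6st2. Fgf5 was higher in mutants at E10.0 (0.70, FDR 0.0958, edgeR exact test), a call held in 6 of 16 alternatives. It was lost without any 1 embryo other than mutant replicate 3 (0.58 to 0.86), without mutant replicates 4 and 5 together (0.54, FDR 0.184) and with a replicate block (0.40). Among 11 tested receptor partners, 2 were lower at E10.0: Fgfbp3, an FGF carrier protein (-0.88, FDR 0.0127), and the heparan sulfate proteoglycan Gpc1 (-0.43, FDR 0.0105, edgeR exact test). The Fgfbp3 call was lost without wild-type replicate 2 (-0.76), without mutant replicates 4 and 5 (-0.65, FDR 0.109) and with a replicate block (-0.56, FDR 0.173), and the Gpc1 call without wild-type replicate 3 (-0.39). Of 14 enzymes of heparan sulfate synthesis and trimming, the sulfatase Sulf1 was higher at E10.0 (0.48, FDR 0.0280, edgeR exact test), a call lost without wild-type replicate 2 (0.47) or 3 (0.34). At E10.5, 1 of the 11 receptor partners passed the exact test without mutant replicates 4 and 5. With all embryos, no gene of these lists passed the exact test, DESeq2 or the quasi-likelihood test at E10.5, and 1, 1 and 0 of them had an unadjusted p under 0.05. None of 21 adaptors and kinases below the receptors was called at either stage by these tests, with 2 and 0 at an unadjusted p under 0.05 and the smallest p for the kinase gene Mapk3 at E10.0 (-0.22, FDR 0.171) and the adaptor gene Gab1 at E10.5 (0.13, FDR 0.701, edgeR exact test). Without mutant replicates 4 and 5, 4 and 1 of the 21 passed. The medians of the last 3 lists lay between -0.05 and 0 (log2) at both stages, against -0.02 and -0.01 over all genes.

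Genes that FGF signalling induces, many of which feed back to restrain it, were read as a separate list of 14. At E10.0 none passed the exact test, DESeq2 or the quasi-likelihood test, and 2 had an unadjusted p under 0.05. Without mutant replicates 4 and 5, 1 of the 14 passed the exact test at E10.0 and 3 at E10.5. With all embryos, 2 rose in mutants at E10.5 and none fell, both of them Sprouty inhibitors. Spry2 read 34.7, 36 and 33 CPM in wild-type and 49.3, 47.7, 49.2 and 48.1 CPM in mutant buds, and Spry4 read 46.2, 52 and 45.5 and 64.2, 56.8, 63.9 and 57.9 CPM. Neither gene's groups overlapped. The log2 differences were 0.49 for Spry2 (FDR 0.000136) and 0.34 for Spry4 (FDR 0.00798, edgeR exact test), the latter lost without wild-type replicate 3 (0.31). The phosphatase Dusp6, a common readout of FGF signalling, had a log2 difference of 0.23 (FDR 0.161), and the ETS factors Etv4 and Etv5 had 0.01 and 0.07 (FDR 0.996 and 0.910, edgeR exact test). The largest difference of the 14 at E10.5 was in the other direction, for Dusp5 (-0.69), and did not pass (FDR 0.156, edgeR exact test). At an unadjusted p under 0.05, 5 of the 14 differed at E10.5. The median of the 14 was 0.07, against -0.01 over all genes. With stage, 4 of the 14 fell in wild-type buds (Dusp4, Dusp5, Etv4 and Etv5), and in mutants 2 rose (Spry2 and Spred3) and 4 fell (Spry1, Dusp4, Dusp5 and Etv4).

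**Figure D5:**
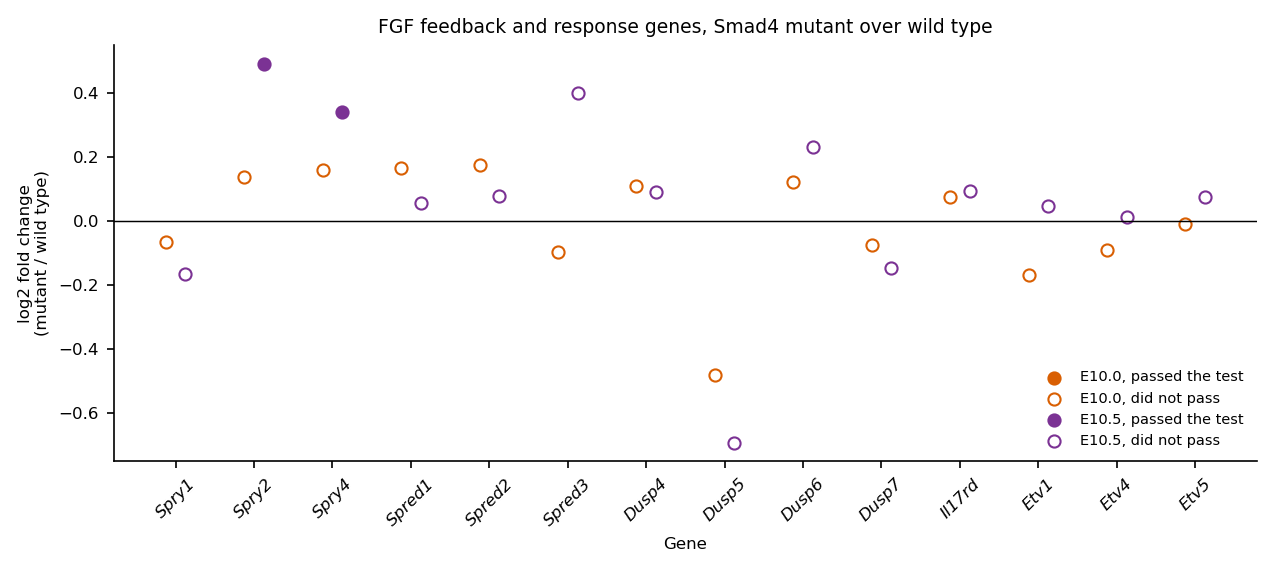
Log2 fold change of mutant over wild-type forelimb buds for the 14 feedback and response genes at E10.0 and E10.5; filled points passed edgeR's exact test. Spry2 (0.49) and Spry4 (0.34) passed at E10.5, and none did at E10.0.

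Among 11 partners of the ridge FGFs in limb outgrowth, Grem1 was the most affected, at -1.22 (log2) at the earlier and -1.09 at the later stage in mutants (FDR 1.7e-15 and 9.3e-13, edgeR exact test). The BMP ligand genes Bmp4 (0.38 and 0.34) and, at E10.5, Bmp2 (0.91, FDR 9.5e-06) were higher, as was the SHH receptor gene Ptch1 at E10.0 (0.38). Tbx5, the forelimb factor upstream of Fgf10, was lower at E10.0 (-0.31, FDR 0.0698, edgeR exact test). Some of these calls rested on single embryos. At E10.0, Bmp4 lost its call without wild-type replicate 3 (0.35), Ptch1 without wild-type replicates 1 (0.34) or 3 (0.35), and Tbx5 without mutant replicates 1 (-0.26) or 3 (-0.24) or wild-type replicates 1 (-0.30) or 3 (-0.22). At E10.5, Bmp4 lost its call without mutant replicates 4 (0.26) or 5 (0.32) or wild-type replicates 2 (0.36) or 3 (0.32). It was 0.20 without mutant replicates 4 and 5 together (FDR 0.242) and 0.16 with a replicate block (FDR 0.347), and passed in neither.

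Markers of the cell types in a forelimb bud moved with genotype beside these results. Mesenchyme markers summed to 1492 to 1548 CPM in wild-type and 1194 to 1278 CPM in mutant buds at E10.5, with 4 of 7 lower (Prrx1 -0.32, Prrx2 -0.83, Twist1 -0.36 and Lhx2 -0.54). Tbx5 (-0.04), Msx1 (-0.55) and Lhx9 (-0.13) were not called. The paper lists Prrx2 and Lhx2 among the SMAD4 target genes reduced in these mutants, so the sum does not measure the share of mesenchyme cells. The part of the mesenchyme in the lower Fgfr2 and Fgfr3, and that of the other cell types given here in any FGF gene, was not tested. At E10.0, 5 of 7 were lower (also Tbx5), with sums of 1341 to 1547 and 1070 to 1275 CPM. Ectoderm markers summed to 282 to 300 CPM in wild-type and 204 to 291 CPM in mutant buds at E10.5, with 0 of 12 called in the exact test, DESeq2 or the quasi-likelihood test and 1 at an unadjusted p under 0.05. Without mutant replicates 4 and 5, 1 of the 12 passed the exact test at E10.5. At E10.0 the ectoderm sums were 298 to 368 and 229 to 332 CPM, and 1 of the 12, Krt5, was lower (-0.40). Markers of mesothelium, which lines the body wall, summed to 2.95 to 4.84 CPM in wild-type and 10.8 to 23.7 CPM in mutant buds at E10.0, and to 5.0 to 7.66 and 2.41 to 4.92 CPM at E10.5, in opposite directions at the 2 stages. Of 4 tested, Wt1 (2.38), Upk3b (3.35) and Lrrn4 (1.42) were higher at E10.0, and Wt1 (-1.42) and Upk3b (-1.76) were lower at E10.5. At E10.5 neither passed without mutant replicates 4 and 5 (Wt1 -0.84, FDR 0.193, and Upk3b -1.18, FDR 0.360), with a replicate block (-0.64 and -0.82) or in the quasi-likelihood test. The macrophage sum was 2.15 CPM or more in wild-type and 5.65 CPM or more in mutant buds at E10.0, with 2 of 4 called higher (Cx3cr1, 1.34, and Ptprc, 0.94). Of 5 tested muscle precursor markers, Myog (4.14) and Myf5 (1.26) were higher at E10.0, and Myog was lower at E10.5 (-2.85). Myog had 5 to 15 reads per wild-type library at E10.0. Pax3 (0.09), Met (0.12) and Lbx1 (-0.38) were not called at E10.0. The sums of the 7 listed muscle markers overlapped there, at 80.7 to 95.7 CPM in wild-type and 87.5 to 111 CPM in mutant buds. Single genes also passed among endothelial markers at E10.0 (Esam, -0.28) and neural crest markers at E10.5 (Erbb3, -0.42), and none of 4 erythroid markers did at either stage by the exact test, DESeq2 or the quasi-likelihood test, with 0 and 1 (Hbb-bh1, -0.34, at E10.5) at an unadjusted p under 0.05. Leaving out single embryos ended the calls of Krt5 (5 of 7 embryos, -0.44 to -0.34), Esam (6 of 7, -0.31 to -0.23), Prrx1 (5 of 7, -0.31 to -0.23) and Ptprc (4 of 7, 0.75 to 0.95) at E10.0, and of Prrx1 (5 of 7, -0.33 to -0.27), Upk3b (4 of 7, -1.63 to -1.32) and Erbb3 (6 of 7, -0.43 to -0.39) at E10.5. Without replicates 4 and 5, Fgf9, Fgf18, Fgfr2 and Fgfr3 still passed at E10.5 (1.05, 0.85, -0.44 and -0.44), as did Prrx2, Twist1 and Lhx2, whereas Prrx1 (-0.21, FDR 0.362) and Erbb3 (-0.40, FDR 0.182) did not. At E10.0, the calls of Prrx1 (-0.24), Twist1 (-0.26, short of a 1.2-fold change) and Esam (-0.22) were lost without them.

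Across all 14 embryos, the genes whose log2(CPM + 1) profile was most like that of a member are given as a description, since genotype and stage shape all of these profiles. For Fgf9 these were Tnfaip8 (r = 0.972), Hmgcll1 (0.968) and F13a1 (0.965), and for Fgf18 they were Hes6 (0.970), Wfikkn2 (0.968) and Pdzd2 (0.964). After the group means were taken out, r was 0.495 for Fgf9 with Tnfaip8 and 0.894 for Fgf18 with Hes6. Fgfr2 was most like Fndc5 (0.933), the BMP target Msx2 (0.925) and Dync1i1, and Fgfr3 most like the limb factor Tbx3 (0.958), Fndc5 (0.899) and Rgs5. Fgf10 was most like Mpp6 (0.963), Pitpnb and Ppp2r5a, and Fgfr1 most like Zfp532 (0.957), Hk1 and Nfatc1. For Fgf4 they were Sri (0.938), Alox5ap and Glrb, and for Fgf8 they were Mtrr (0.927), Taf10 and Lad1. Likeness to Fgfr1 changed little within groups (Zfp532, 0.955), whereas that of Fgfr3 to Fndc5 fell to 0.356 and that of Fgfr2 to Msx2 fell to 0.533.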

How the data were processed

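The deposited files hold raw read counts per gene, made by the authors from polyA-selected, unstranded 50-base single reads, aligned with TopHat2 2.0.13 to the mouse genome mm9 with RefSeq gene models and counted with HTSeq without regard to strand. Reads that fell on several genes were 1.49 to 1.75% and those on none 6.18 to 9.86%.

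From the counts, edgeR 4.0.16 in R 4.3.3 scaled libraries by TMM (factors 0.934 to 1.035), left out chromosomes X, Y and M, kept genes that reached 1 CPM in 3 or more samples, and fitted common and tagwise dispersions (prior degrees of freedom 10) over all 14 samples. The exact test with Benjamini-Hochberg adjustment was used for each genotype and stage comparison, and the quasi-likelihood test for the interaction, which was called at an FDR of at most 0.1. The SE of a log2 fold change was computed from replicate SDs alone, so it can be too small for genes with few reads. Fgf17 and Fgfr4, under the filter, were taken from a fit with no filter, a choice made after seeing the data. Ratios to Fgf8 used exact permutation tests in scipy 1.17.1. Alternatives were DESeq2 1.42.0, the quasi-likelihood test, other size factors, no filter, only the compared groups, removal of Rn45s, a replicate block, and leaving out samples. In genotype comparisons the block has few embryos to estimate the spread, since only replicate numbers present in both genotypes inform it. The exact test and the quasi-likelihood interaction test were tried on simulated data. DESeq2, the replicate block and the quasi-likelihood tests of genotype and stage were not.

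The members and lists were chosen with earlier results of these data known. The text names all members, Smad4, from every other list the genes called in a genotype comparison, or else those with the smallest p, and the 3 genes most like each tested member. Dusp5, Dusp6, Etv4, Etv5, Fgf1, the genes of chromosome X, the markers not called or not tested and the genes named for a stage change were named after their values were seen.

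Replicates are separate embryos. No libraries were duplicates (chi-square per degree of freedom at least 14.0). Same-numbered mutants of the 2 stages deviated together (correlations 0.27 to 0.61 over 3 pairs), while differently numbered ones ranged from -0.59 to 0.38 over 13 pairs. These ranges overlap, with 0.38 for E10.0 replicate 4 and E10.5 replicate 5, so pairing by number was not established. With numbers taken as pairs in that comparison, the block ended only the Fgfr1 call among members. Sequences came from RefSeq tables of GRCm38.p6, whose coordinates were not mixed with mm9.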

Additional observations from a re-analysis of the deposited data

Results flagged for a closer look

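Among 28 groups of 4 embryos checked for a sample far from the others, 1 stood out, about what chance gives (1 in 20 groups): the highest mutant at E10.0 for Smad4, with 46.0 CPM. The genotype effect differed between stages for Myog (log2 difference of E10.5 over E10.0 of -6.88, FDR 0.0149), Wt1 (-3.75, FDR 0.0190) and Upk3b (-5.05, FDR 0.0366) in edgeR's quasi-likelihood test. For Upk3b the test failed without mutant E10.5 replicate 5 (-4.87), wild-type E10.5 replicate 3 (-4.63) or mutant replicates 4 and 5 (-4.75). No FGF ligand or receptor met either criterion.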

How the results depend on the processing

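Over all alternatives, 694 values of the FGF genes kept their direction and their side of the threshold, 24 lost and 13 gained a call, and 34 changed sign. The calls of Fgf9, Fgf18 and Fgfr2 at E10.5 were kept in every alternative, and that of Fgfr3 was lost with the replicate block (-0.44, FDR 0.128). The causes of changes were not tested.

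Genes called at E10.0 numbered 819, with 2121 in the replicate block, 2018 without mutant replicates 4 and 5, and 254 to 1062 with 1 embryo left out. At E10.5 they numbered 462, with 1467 in the block and 286 to 468 with 1 left out. Both block counts rest only on replicate numbers present in both genotypes. In wild-type stages there were 1256, with 1932 from only the 2 groups compared and 484 to 1357 with 1 left out. The interaction gave 23, with 87 in DESeq2, 39 with no filter, 6 without replicates 4 and 5, and 7 to 34 with 1 left out.

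FGF genes called at E10.0 went from 0 to 1 in the block and without replicates 4 and 5 (0 to 1 with 1 left out), from 3 to between 1 and 2 for wild-type stages with 1 left out, and from 0 to 1 for the interaction in DESeq2 (0 to 1 with 1 left out).

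Signs changed at E10.0 for Fgf4 (0.20 in the block, 0.49 without replicates 4 and 5, -0.57 to 0.47 with 1 left out), Fgfr1 (-0.20, -0.15, -0.055 to 0.067), Fgfr4 (-0.085 in the block) and Fgf8 (-0.043 to 0.16 with 1 left out). At E10.5 they changed for Fgf8 (-0.30, -0.16, -0.023 to 0.24) and Fgf17 (-0.18, -0.17, -0.13 to 0.22), in wild-type stages for Fgf17 (-0.32 to 0.020) and Fgfr2 (-0.029 to 0.077), and in the interaction for Fgf8 (-0.040, -0.28, -0.080 to 0.19) and Fgf4 (-0.91 to 0.16). Outside the mutant stages, numbers did not pair the samples (correlations -0.28 to 0.17), and between the mutant stages pairing by number was not established.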
